A study of Mus musculus with 2 samples.

Results

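The Rhox genes are a cluster of reproductive homeobox genes on the mouse X chromosome, and 10 of them were examined by symbol: Rhox1, Rhox2a, Rhox3a, Rhox4b, Rhox5, Rhox6, Rhox9, Rhox10, Rhox11 and Rhox13. Only 4 of the 10, Rhox5, Rhox6, Rhox9 and Rhox13, had a probe set annotated to that gene alone, out of 18193 genes with such a probe set, and each had 1. No value is given for Rhox1, Rhox2a, Rhox3a, Rhox4b, Rhox10 and Rhox11. No probe set annotated to several genes carried a Rhox symbol either, and 9160 probe sets listed with no gene were not searched. RefSeq lists 42 Rhox loci (assembly GRCm38.p6), of which 33 are protein-coding, so 29 coding loci had no single-gene probe set. Those outside the list of 10 were the remaining 20 copies of Rhox2, Rhox3 and Rhox4, and Rhox7a, Rhox8 and Rhox12.

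RNA came from mouse embryonic stem (ES) cells, with 1 Affymetrix Mouse Genome 430 2.0 array for a control culture and 1 for a culture labelled as a knockout (KO) of Dnmt1. The titles give the genotype, while the source name of both samples describes a control. The labels give no allele, strain, sex, passage or clone for the cells, and do not say how the cultures are related. The stated purpose was a KO control for other work on ES cell differentiation. With 1 array per group there is no spread between cultures to set a difference against, and no test exists. Dnmt1 signal was lower on the KO array in each of its 3 probe sets, going from 1949.1 to 262.1, from 874.7 to 56.8 and from 348.3 to 20.0. The labels do not say which exons the KO removes, so these probe sets may lie outside them.

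Rhox genes encode homeodomain transcription factors of the paired-like class, and they are expressed mainly in testis, epididymis, ovary and placenta. Rhox5, first described as Pem, is the founding member and has a distal promoter, used in ovary and placenta, and a proximal one, used in Sertoli cells and epididymis. Dnmt1 copies methylation of CpG dinucleotides onto the new DNA strand after replication, and in mouse embryos and ES cells the Rhox cluster is a known target of silencing by DNA methylation. The array measured RNA only, and no methylation was measured.

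Promoter windows are shown because CpG dinucleotides are where this methylation can occur. RefSeq windows (GRCm38.p6) reach from 250 bases before a gene start to 50 after it, and 28 Rhox loci had one. Rhox5 and Rhox13 were the only measured members among them, so their windows are given here, with each CpG in capitals. That of Ndufa1, a mitochondrial complex I subunit gene just before the cluster, is given for contrast. The Rhox5 window (chrX:37754358-37754657, plus strand) and the Rhox13 window (chrX:38120590-38120889, plus strand) held 5 CpGs each, and the Ndufa1 window (chrX:37191189-37191488, minus strand) held 29.
Rhox5: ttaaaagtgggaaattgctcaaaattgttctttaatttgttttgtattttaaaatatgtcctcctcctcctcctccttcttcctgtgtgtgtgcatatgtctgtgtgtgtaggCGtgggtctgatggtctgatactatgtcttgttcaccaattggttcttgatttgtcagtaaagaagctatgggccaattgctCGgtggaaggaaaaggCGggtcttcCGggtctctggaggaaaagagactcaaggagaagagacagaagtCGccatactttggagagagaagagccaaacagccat
Rhox13: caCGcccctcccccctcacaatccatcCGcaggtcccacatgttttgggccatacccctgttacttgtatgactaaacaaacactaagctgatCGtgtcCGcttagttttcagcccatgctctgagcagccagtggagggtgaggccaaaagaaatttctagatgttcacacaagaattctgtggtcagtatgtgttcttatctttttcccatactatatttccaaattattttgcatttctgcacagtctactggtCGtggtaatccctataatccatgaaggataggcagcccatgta
Ndufa1: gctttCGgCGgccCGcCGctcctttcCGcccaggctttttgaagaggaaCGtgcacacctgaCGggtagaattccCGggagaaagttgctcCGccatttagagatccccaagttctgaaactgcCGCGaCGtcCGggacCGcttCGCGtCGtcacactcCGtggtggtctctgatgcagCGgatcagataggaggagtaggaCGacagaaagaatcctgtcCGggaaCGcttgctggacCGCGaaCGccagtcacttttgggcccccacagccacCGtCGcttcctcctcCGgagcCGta
Which of the known Rhox5 promoters the table's single start represents is not stated. The CpGs of Rhox5 lie mostly in the last part of its window, near the gene start, while those of Rhox13 lie mostly in the part farthest from it.

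All 4 measured Rhox genes had a higher signal on the KO array. Values are linear signals as deposited, made with the Affymetrix MAS5 algorithm, which gives 1 value per probe set. Levels of different probe sets are not comparable, so only the arrays are compared within each. Rhox5 (probe set 1423429_at) went from 314.1 on the control array to 3245.8 on the KO array. Rhox6 (1419018_at), a placental homeobox gene formerly called Psx1, went from 54.3 to 602.8. Rhox9 (1449540_at), formerly Psx2, went from 98.1 to 392.6. Rhox13 (1443844_at), a testis homeobox gene at the far end of the cluster, went from 84.6 to 264.5. Rhox5 was therefore clear of the array's low range on both arrays, while the other members started near it.

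**Figure D1:**
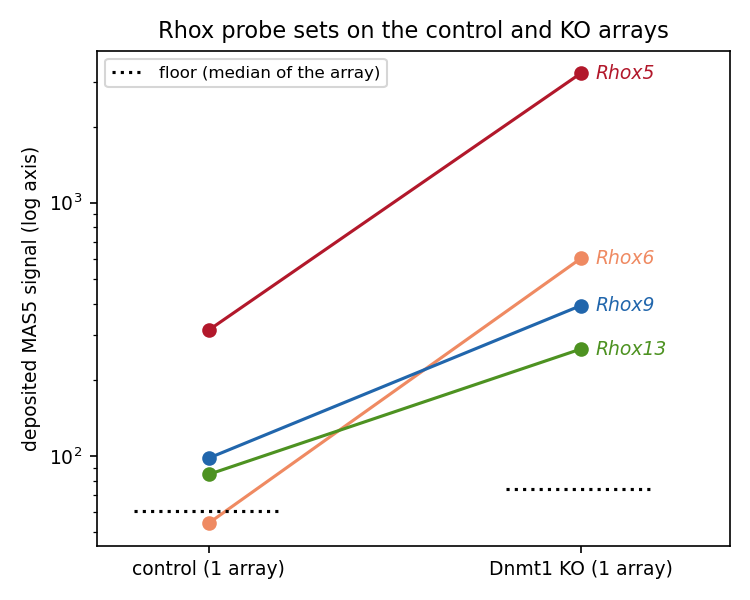
Deposited MAS5 signal (log axis) of the 4 Rhox probe sets on the control and KO arrays, 1 array each, with dotted lines at each array's median (60.9 and 74.2). Every line goes up from control to KO, and only Rhox6 starts below the control array's median; heights of different probe sets are not comparable.

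To read these as ratios, signals below an array's median over all probe sets were raised to that median, called the floor. It was 60.9 for the control and 74.2 for the KO. Ratios are given on the log2 scale relative to the median gene, which was 1.34-fold brighter on the KO array as deposited (a shift of 0.43). Rhox5 then had a log2 ratio of 2.94, or 7.70-fold higher on the KO array (10.3-fold as deposited). Rhox6 was below the floor on the control array, so its ratio is a bound of at least 7.37-fold (log2 2.88 or more). Rhox9 was 2.98-fold higher (log2 1.58), or 4.0-fold as deposited. Rhox13 was 2.33-fold higher (log2 1.22), or 3.13-fold as deposited. Rhox5 and Rhox6, which are next to each other among the measured members, thus had larger ratios than Rhox9 and Rhox13, and the 4 values spanned 1.72 on the log2 scale.

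A replicate spread was not available, and the only technical scale was the disagreement between probe sets of one gene. Its SD, pooled over 4704 genes with at least 2 usable probe sets, was 0.24 on the log2 scale, and it covers neither culture nor array differences. Each Rhox gene has 1 probe set, so none could be checked by a second. The smallest ratio, that of Rhox13, was 5.02 times this SD, and that of Rhox5 was 12.1 times. The SD was pooled over all signal levels above the floor. It was not matched to Rhox9 and Rhox13, whose control signals were only 1.61 and 1.39 times the floor. Whether RNA from the close copies in the cluster binds these probes was not tested.

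The median log2 ratio of the 4 genes was 2.23, against -0.005 for the 12226 genes above the floor on at least 1 array. All 4 were at least 2-fold higher and 0 were 2-fold lower, where 1.09% of all measured genes were 2-fold higher (133 genes) and 0.532% were 2-fold lower (65 genes). As deposited, all 4 were also 2-fold higher, against 4.92% of all genes (602 genes), and 0.0982% of all genes were 2-fold lower (12 genes). Both arrays had 10995 genes above the floor, Rhox5, Rhox9 and Rhox13 among them, and of these 0.946% were 2-fold higher relative to the shift. Of the 702 above it on the KO array alone, as Rhox6 was, 4.13% were. The members were chosen with earlier results of these arrays known, so these shares describe them and test nothing. Ranked from the highest ratio, Rhox5 was number 2 and Rhox6 number 3 among all measured genes, with Rhox6 placed at its bound. Rhox9 was number 33 and Rhox13 number 78. With the floor raised to each array's 75th percentile, Rhox13 was below it on both arrays and Rhox9 had a log2 ratio of at least 0.53, so only Rhox5 and Rhox6 were then called. At a 3-fold threshold Rhox5 and Rhox6 were likewise the only members called.

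**Figure D2:**
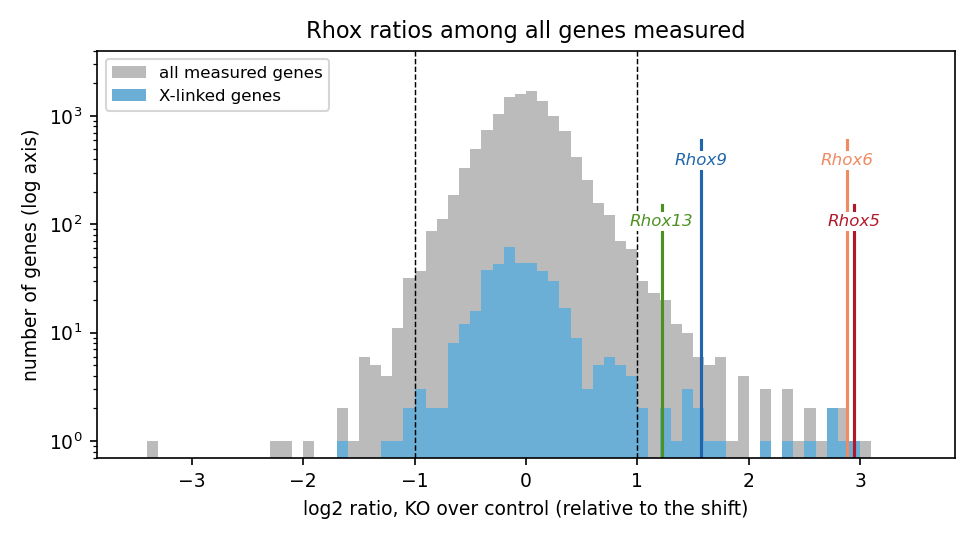
Histogram of log2 ratios (KO over control, relative to the shift) for the 12226 measured genes in grey and the 414 X-linked ones in blue, with the number of genes on a log axis and dashed lines at 2-fold. Vertical lines mark the Rhox genes, all right of the 2-fold line, with Rhox5 (2.94) and Rhox6 (a bound of 2.88) at the far end.

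The 5 genes with ratios nearest to that of Rhox5, over 2 arrays and among genes above the floor on both, were Khdc3, Cox7b2, Gm364, Gm6958 and Pnma5. Their control signals were 67.7, 61.3, 85.8, 83.3 and 181.0 in that order. All but Pnma5 lay nearer the control floor of 60.9 than the 314.1 of Rhox5, on the linear and the log scale. Pnma5 did so on the linear scale only. Khdc3, an oocyte gene needed by the early embryo, was 8.30-fold higher and differed from Rhox5 by 0.11 on the log2 scale. Pnma5, the farthest of the 5, was 5.76-fold higher and differed by 0.42. Gm364 and Pnma5 are also X-linked, Khdc3 lies on chromosome 9, Cox7b2 on chromosome 5 and Gm6958 on chromosome 16.

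The surrounding genes of the X chromosome did not share the size of the Rhox ratios. In RefSeq gene order, the 42 Rhox loci lie within a stretch of 58 loci, and 25 genes were taken on each side, the nearest that had a probe set of their own. Of these 50, 38 were above the floor on at least 1 array, and 0 were called at least 2-fold higher or lower. A gene at the floor on 1 array was called by its bound, which can hide a larger ratio. Among the 410 measured X-linked genes outside Rhox, these neighbours included, 3.66% were 2-fold higher and 1.22% 2-fold lower (8.54% and 0.244% as deposited). The median neighbour lay at 0.08 on the log2 scale (0.51 as deposited), and values ran from -0.92 for Dcaf12l1 to 0.87 for Lonrf3. Relative to the shift, 23 lay above it and 15 below it. As deposited, 3 neighbours passed 2-fold, among them Lonrf3 (log2 ratio 1.29) and Gm9, next to the cluster (at least 1.16).

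Immediately before the cluster, Gm9 went from below the floor on the control array to a log2 ratio of at least 0.74. Rnf113a1 followed at -0.25 and Ndufa1 at 0.19. Immediately after it, Atp1b4 was below the floor on both arrays, and the nearest measured genes were the lysosomal membrane gene Lamp2 at 0.32, the ubiquitin ligase scaffold Cul4b at -0.13 and Mcts1 at -0.49. Within the stretch, Zbtb33, which encodes the methyl-CpG binding protein Kaiso, had a log2 ratio of -0.09, and Tmem255a was below the floor on both arrays. Relative to the shift, the only measured genes in and around the stretch called past 2-fold were therefore the 4 Rhox genes. The ratio of Gm9 was only a lower bound, so it may also lie past 2-fold.

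**Figure D3:**
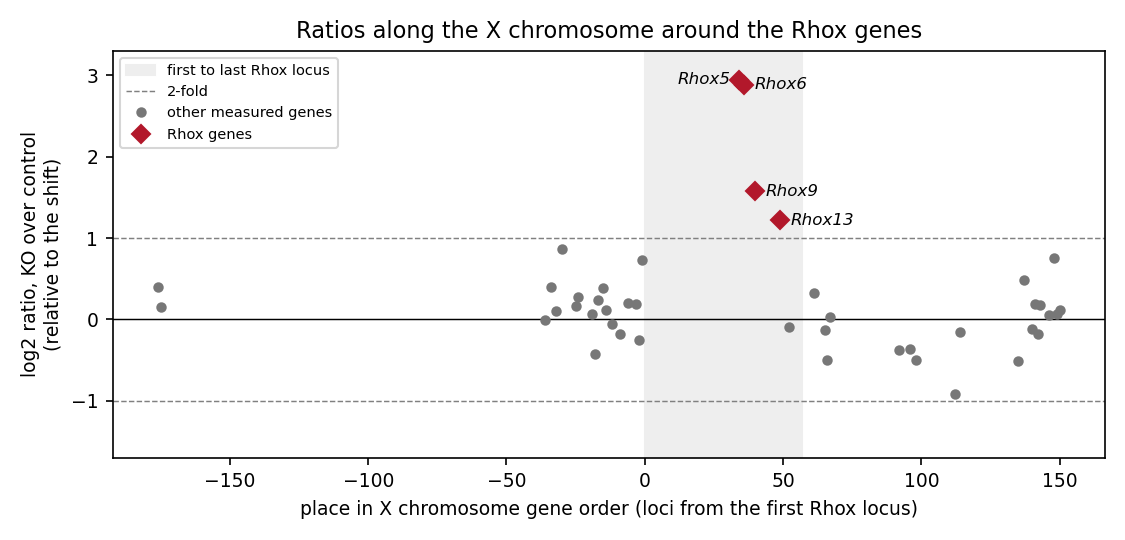
Log2 ratio (KO over control, relative to the shift) of measured genes against their place in X chromosome gene order, counted in loci from the first Rhox locus, with grey shading from the first to the last Rhox locus. The Rhox genes (red) lie between 1.22 and 2.94, and the neighbours (grey) between the dashed 2-fold lines. Genes at the floor on 1 array, Gm9 and Rhox6 among them, are placed at their bound.

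Over the whole X chromosome, 19 genes were at least 2-fold higher, of which 4 were the Rhox genes. The other 410 measured X-linked genes had a median of -0.07 on the log2 scale, and 42.7% of them lay above the shift. Among X-linked genes alone, Rhox5 and Rhox6 ranked 1 and 2, Rhox9 ranked 10 and Rhox13 ranked 17.

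Other, mainly X-linked, germline gene families gave a mixed picture beside the Rhox genes. Of 54 listed genes, 19 had a probe set of their own. The RefSeq table places 2 of the 19 (Mageb3 and Spanxn4, below the floor on both arrays) off the X chromosome. All 13 measured genes are X-linked, 7 of them above the floor on the KO array alone. Of the 13, 4 were at least 2-fold higher and 0 lower (5 and 0 as deposited). Higher were 3.66% of the 410 measured X-linked genes outside Rhox, these 13 included, and 1.09% of all genes. As deposited, these shares were 8.54% and 4.92%. A gene measured through the KO array alone could pass only as higher. The list median was 0.21. Nxf3, of the RNA export factor family, went from 8.9 to 425.0 and was at least 5.20-fold higher. Tex13b, a testis-expressed gene, went from 5.6 to 271.7 (at least 3.32-fold), Fmr1nb from 393.8 to 1458.7 (2.76-fold) and Tktl1, a transketolase paralog, from 62.9 to 212.1 (2.51-fold). Usp26, a testis deubiquitinase, had a log2 ratio of at least 0.95. Taf7l, a germ-cell TFIID subunit paralog, had 0.46, Tex11 at least 0.21 and Esx1 -0.20.

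No measured gene in a list of other homeobox genes related to Rhox by class was called higher. The 44 listed genes are of the wider paired (PRD) class, with Pax genes among them. Of these, 34 had a single-gene probe set, 20 were below the floor on both arrays and 14 were measured. None of the 14 reached 2-fold in either direction, relative to the shift or as deposited. Of all genes, 1.09% were 2-fold higher and 0.532% lower (4.92% and 0.0982% as deposited), so 0 of 14 does not set them apart. The control array had 13 above the floor and the KO array 10. A gene measured through the control array alone could pass only as lower. The median of the 14 was -0.40 after centring but 0.03 as deposited, so the side on which they lay depended on the scaling. Phox2a, a neuronal factor, had -0.68, Pax6 -0.52 and Sebox -0.47 (-0.21 ± 0.37, SD over 2 probe sets), while Crx had -0.56 or below. Esx1, which like the Rhox genes is X-linked and active in placenta and testis, went from 203.0 to 238.1.

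Listed factors known to silence the cluster or similar germline genes, or to act on DNA methylation, were mostly near the median gene, apart from Dnmt1. Of 40 listed, 32 were measured. These include the dioxygenase genes Tet1 (log2 ratio 0.005) and Tet2 (-0.26), which are not silencing factors and are named after their values were seen. Relative to the shift 1 was lower, Dnmt1 at 9.99-fold, and 0 were higher, with a median of 0.00. As deposited, Dnmt3l, Dnmt3a and the linker histone gene H1f2 were also past 2-fold on the higher side, and 1 was lower. These counts stand beside 1.09% of all genes higher and 0.532% lower, or 4.92% and 0.0982% as deposited. Dnmt3l, a cofactor of de novo methylation, went from 2877.6 to 6167.0 (log2 ratio 0.67). Dnmt3a, a de novo methyltransferase, went from 554.7 to 1187.2 (0.67), but its 5 probe sets averaged 0.42 ± 0.21 (SD between probe sets). H1f2 had 0.63 and Max, a partner of Mga in E-box binding complexes, had 0.53. Of factors with a known part in silencing methylated or germline genes, named here after their values were seen, Hells had -0.24, Ehmt2 -0.29, Setdb1 0.32 and E2f6 0.12.

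Known activators of the Rhox5 promoters lay near the median gene. All 9 measured, of 12 listed, lay between -0.38 and 0.35, with a median of 0.03. Elf1 and Elf2, of the ETS family, a class known to act on the distal promoter, had -0.38 and 0.31, Ets2 had 0.35 and Nras -0.24. The 2 probe sets of Elf2 differed, with an SD of 0.41. Of 5 genes reported to depend on Rhox5 in Sertoli cells, 3 were below the floor on both arrays (Ins2, Adipoq and Ppargc1a). The netrin receptor gene Unc5c had -0.29 and the adipokine gene Retn 0.02.

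Markers of the cell types that normally express Rhox genes were examined next, since bulk RNA cannot tell a few cells of another type from a change in all cells. The ES cell markers were present, with all 12 above the floor on both arrays, among them Pou5f1 (2689.7 and 3297.0) and Sox2 (5436.6 and 6962.0), named after their values were seen. Counts in the marker lists stand beside 1.09% of all genes 2-fold higher and 0.532% lower, or 4.92% and 0.0982% as deposited. Summed signals are deposited values, which carry the 1.34-fold shift, and bright genes weigh most in them. Of the 12, 3 were at least 2-fold higher and 0 lower, namely Klf4 (log2 ratio 1.92; 1.61 ± 0.43, SD over 2 probe sets), Nanog (1.30) and Esrrb (1.18; 0.84 ± 0.40, SD over 3 probe sets). Others with large ratios by size were Utf1 (-0.62; -0.33 ± 0.41, SD over 2 probe sets), Fgf4 (-0.51), Dppa5a (-0.22) and Zfp42 (0.21). Their median was -0.08, and 0.34 as deposited.

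Of 17 Sertoli cell markers with a probe set, the control array had 7 above the floor and the KO array 6, and their summed signal was 1733.5 and 2721.9. Below the floor on both arrays were 9, among them Amh (10.1 and 10.8), Fshr (41.5 and 51.0) and Sox9 (7.3 and 4.8). Above it on both were Clu (886.6 and 1198.7), Inha (92.8 and 112.2), Gata1 (83.0 and 118.6), Aard and Dmrt1. Amh, Fshr, Sox9, Clu, Inha and Gata1 are named after their values were seen. Tsx, an X-linked testis gene, was the 1 marker at least 2-fold higher (41.5 to 221.6, at least 2.71-fold), or 1 of 2 as deposited. Aard had 0.95, Gata4 -0.54 or below, Dmrt1 0.38 and Wt1 -0.21 or below. Of 13 granulosa and oocyte markers, the control array had 8 above the floor and the KO array 6 (sums 1080.3 and 1278.7), and none was 2-fold different, with Gdf9 at -0.38, Foxl2 at -0.32, Fst at 0.30 and Zp1 at -0.27 or below.

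Of 19 trophoblast markers, 13 were above the floor on each array, with summed signals of 4833.5 and 7775.9. Measured were 14, with 4 past 2-fold on the higher side and 0 on the lower (5 and 0 as deposited, beside 4.92% of all genes higher): the hormone gene Sct (1.80), Tfap2c (1.23), the keratin gene Krt7 (at least 1.17) and the X-linked placental gene Plac1 (1.03). Phlda2 had -0.74, Ascl2 0.70 (0.81 ± 0.42, SD over 3 probe sets) and Fgfr2 0.47. Of the lineage factors, named after their values were seen, Elf5 and Gata3 were below the floor on both arrays and Cdx2 went from 70.7 to 54.1. Eomes (161.0 and 179.1) and Hand1 (178.1 and 289.8) were above it on both. The brightest Krt8 probe set had 0.42, against a mean of 0.04 ± 0.33 (SD) over its 3 probe sets.

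Of 14 primordial germ cell markers, the control array had 11 above the floor and the KO array 13, with summed signals of 4881.0 and 11328.1. At least 2-fold higher were Dazl (at least 3.76-fold), Sohlh2 (2.93-fold) and Tfap2c, which is shared with the trophoblast list, and 0 were lower, out of 13 measured (7 and 0 as deposited, beside 4.92% of all genes higher). Kit had 0.96, Mael 0.93, Ifitm3 0.87 and Dppa3 0.69, while the germ-cell helicase gene Ddx4, named after its value was seen, had -0.05. Their median was 0.69. Of 15 fibroblast markers, which feeder cells would carry, the control array had 8 above the floor and the KO array 9 (sums 5581.3 and 6940.6). Tagln was the 1 fibroblast marker 2-fold lower (-1.46), with Col1a1 at -0.66 (-0.43 ± 0.33, SD over 2 probe sets), Mmp2 at -0.57, Vim at 0.54 and Col5a1 at 0.37. No marker of any list was at 0. The part that other cells play in the Rhox values was not tested.

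**Figure D4:**
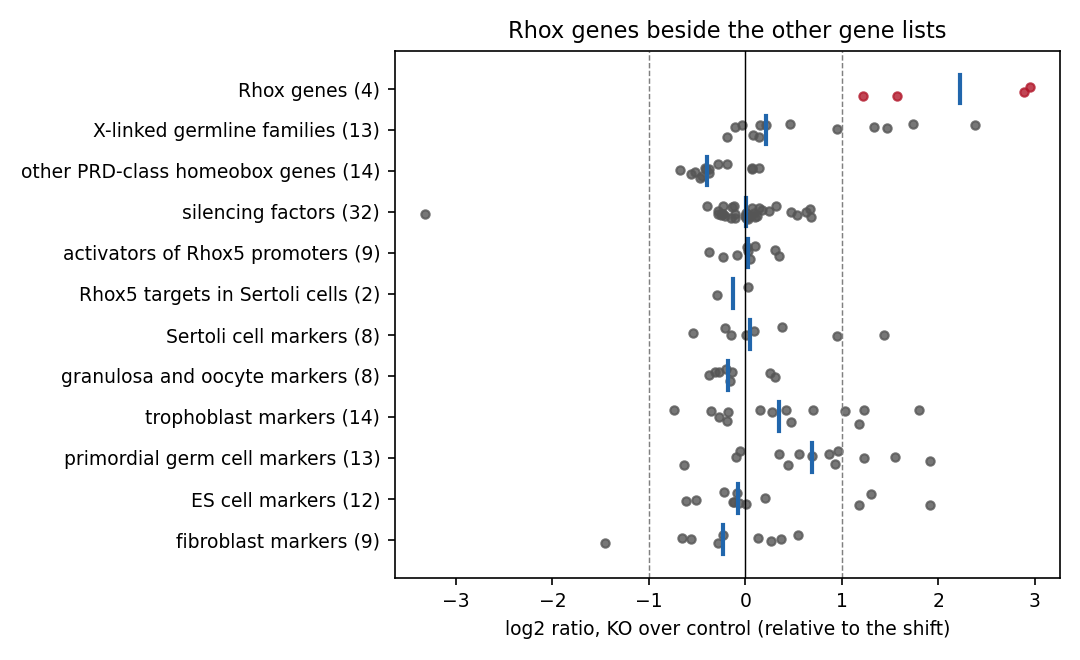
Log2 ratios (KO over control, relative to the shift) of the Rhox genes (red) and the members of the 11 other lists (grey), 1 point per measured gene with its number in brackets, a blue bar at each median and dashed lines at 2-fold. The Rhox median of 2.23 lies right of every other list's median, the next being 0.69 for primordial germ cell markers; points at the floor on 1 array are bounds.

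The CpG counts of the promoters shown above were read against those of all genes. The 28 Rhox windows held between 0 and 12 CpGs with a median of 7, the same median as all 32851 windows. Most of the 28 are of copies of Rhox2, Rhox3 and Rhox4, which were not measured. The 32851 windows also include genes not measured here, and the median was 20 for the 9733 measured genes within 2-fold. Both the Rhox5 and the Rhox13 window, at 5, had a count that 43.6% of all windows did not exceed. The ratio of observed to expected CpGs, which allows for base composition, was 0.36 for Rhox5, 0.33 for Rhox13 and 1.05 for Ndufa1, against a median of 0.44 for Rhox windows and 0.38 for all. No Rhox window was as rich in CpGs as that of Ndufa1, whose count 88.3% of all windows did not exceed. The 44 neighbours with a window had a median of 11 CpGs. Rhox6 and Rhox9 were not in the promoter table.

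**Figure D5:**
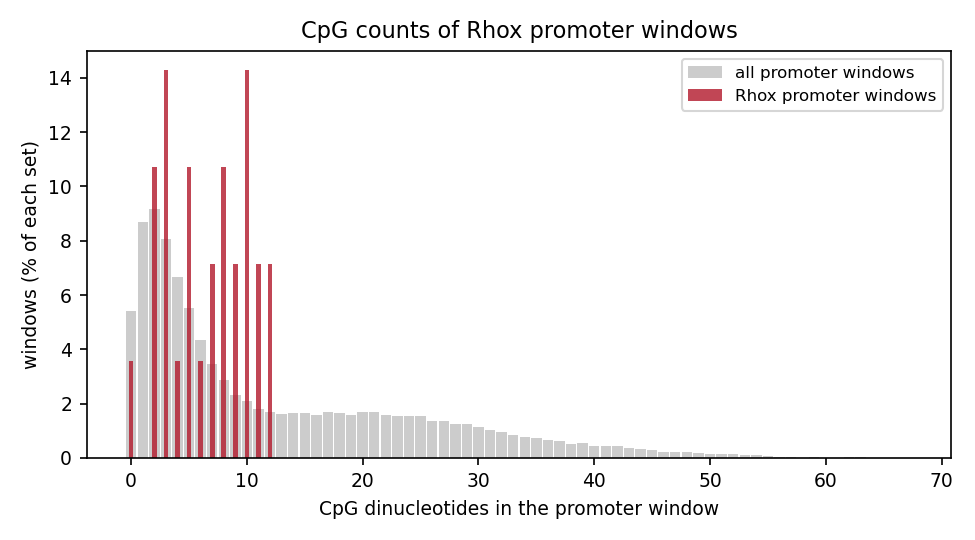
Number of CpG dinucleotides per promoter window (horizontal axis) against the share of windows in percent, for all 32851 windows in grey and the 28 Rhox windows in red. The Rhox windows end at 12 CpGs, while the grey bars extend far beyond.

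Short motifs were searched on both strands of the same windows. The ETS core CCGGAA occurred once in the Rhox5 window and in 8 of 28 Rhox windows, and in 14.9% of all windows, and the other 7 were copies of Rhox2. The E-box CACGTG was in 5 Rhox windows, all of them copies of Rhox4, and in 7.15% of all windows. GGGCGG, bound by Sp1, was in 8 Rhox windows and in 35.7% of all windows. GCGGGA, part of E2F sites, was in 1 Rhox window, that of the noncoding locus Rhox11-ps2, and in 20.0% of all windows. Neither the Rhox5 nor the Rhox13 window held the latter 3, and these matches describe letters only.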

How the data were processed

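Total RNA of mouse ES cells was extracted by phenol and columns and labelled with biotin after 1 amplification cycle, per the labels' protocols. The deposited values are linear signals made with MAS5, per the submitters' processing notes. The labels give no target intensity, scaling or detection calls. The trimmed mean signal (2% off each end) was 184.0 for the control and 246.8 for the KO. Without counts, precision rests on the number of arrays.

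Of 45101 probe sets, 64 Affymetrix controls were left out. Of the rest, 34945 had 1 gene symbol, 932 several and 9160 none, in the platform annotation, and 34741 of the single-symbol probe sets were updated to RefSeq symbols (GRCm38.p6) by gene identifier. Where a gene had several probe sets, that with the highest mean floored log2 signal stood for it. Of 18193 genes, 10995 were above the floor on both arrays and 1231 on 1. Ratios were centred on the median of the former. A gene was called at 2-fold, with no test. Normalization, floor, threshold and probe set summary were varied. The assembly behind the array annotation is not stated.

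The Rhox members, lists and settings were chosen with earlier results of these data known. The naming rule took every Rhox gene with a probe set, Dnmt1, the nearest 3 measured neighbours on each side and inside genes, list members past 2-fold and up to 4 others by size, and the 5 ratios nearest to Rhox5. Analysis used Python 3.11.15, pandas 2.3.3 and statsmodels 0.14.6, and the calls were tested on simulated data.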

Additional observations from a re-analysis of the deposited data

How the results depend on the processing

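All 4 Rhox genes stayed at least 2-fold higher as deposited, with quantile normalization, with lowess, with a floor at the 25th percentile, with no floor and with the mean over probe sets. The count was 2 with a floor at the 75th percentile, where 3 were measured, and 2 at a 3-fold threshold. Their median log2 ratio was 2.65 as deposited and 1.14 with the floor at the 75th percentile. That floor raised the control signals of all but Rhox5, so the ratio of Rhox9 became a lower bound, as that of Rhox6 already was. The Rhox5 log2 ratio ran from 2.92 to 3.37 over 7 settings. Over all genes, the numbers higher and lower were 602 and 12 as deposited, 361 and 388 with a floor at the 25th percentile, 48 and 12 at the 75th, 846 and 1049 with no floor, 579 and 519 at 1.5-fold and 32 and 6 at 3-fold. With the mean over probe sets, 25 were lower. Neighbours 2-fold higher numbered 3 as deposited, 1 with the floor at the 25th percentile, 3 with no floor and 3 at 1.5-fold. No paired analysis was possible because each group has 1 array. Low control signals limit Rhox6, Rhox9 and Rhox13, and no detection calls were used.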

Other observations

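Besides the Rhox genes, 15 X-linked genes had signals at least 2-fold higher in the KO (35 as deposited). Named with the Rhox genes above were Gm364, Pnma5, Nxf3, Tex13b, Fmr1nb, Tktl1, Tsx and Plac1, and the rest are named here after their values were seen. Efhc2 went from 8.1 to 551.2, Scml2, a germline Polycomb protein gene, from 33.1 to 357.1, Taf9b from 59.7 to 260.2 and Ezhip, a gonadal inhibitor of the Polycomb enzyme Ezh2, from 38.1 to 239.9, each starting below the floor on the control array. Nr0b1, an orphan nuclear receptor gene of ES cells, went from 147.8 to 560.2, Ldoc1 from 88.2 to 289.2 and Hs6st2 from 115.6 to 311.4. The 5 X-linked genes at least 2-fold lower relative to the shift were Lpar4 (3.17-fold), Fndc3c1 (2.35-fold), Armcx4 (2.15-fold), Enox2 (at least 2.06-fold) and Apex2 (2.01-fold). As deposited, 1 of the X-linked genes was 2-fold lower, Lpar4.

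The 111 genes called higher that had a promoter window, Rhox5 and Rhox13 among them, had a median of 14 CpGs over 138 windows. The median was 13 for the 49 lower genes and 20 for the 9733 measured genes within 2-fold. That of the 28 Rhox windows was 7, but among these only Rhox5 and Rhox13, with 5 CpGs each, were measured. These medians are descriptions and were not tested.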
